A study of Ambystoma mexicanum with 20 samples.

Results

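In axolotl oocytes cut into 5 segments from the animal to the vegetal end, 300 RNA features had a graded profile, low and nearly level at the animal end and increasingly abundant from segment C through D to E at the vegetal end. They are 0.91% of the 32960 features in the deposited count table. They were chosen by their measured levels, in CPM (a count divided by the total of its library and scaled so that every library has the same total), averaged over the 4 oocytes. A member had a mean of at least 10 CPM over the 20 libraries, a level in C at least 10% above that in A, a level in D at least 25% above C, and a level in E at least 25% above D. The level in E was also above that in A in all 4 oocytes, and E held less than 50% of the sum of the 5 segment means, which leaves out RNAs almost confined to the vegetal end. The conditions were met by 301 features, of which the 300 with the highest mean CPM were kept. The levels of A, C, D and E therefore describe the selection and are no evidence for it.

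The axolotl (Ambystoma mexicanum) is a salamander, and its egg develops from a large oocyte with a polarity fixed during growth. The nucleus lies towards the animal pole, while yolk is densest towards the vegetal pole. In the frog Xenopus, some maternal RNAs are carried to the vegetal cortex during oocyte growth and are inherited by vegetal cells, where they take part in forming the germ layers and the germ line. In the axolotl, germ cells arise by induction in the embryo and not from inherited germ plasm, so the maternal RNAs at its vegetal pole are of comparative interest.

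Per the labels, 4 oocytes were embedded and cut in a cryostat, and 1 library was made from each of the segments A (animal end), B, C, D and E (vegetal end) of each oocyte. All libraries were made from 80 ng of total RNA after depletion of ribosomal RNA, so a level is a share of the RNA in a segment and not an amount of RNA. The oocyte identifiers 1 to 4 of the labels are used here; in the titles these oocytes have the numbers 10, 4, 5 and 9. No strain, female, age or oocyte stage is given, so the p-values reach no further than these 4 oocytes. In the segment tests without an oocyte term they measure the spread between these oocytes within a segment. In the tests with oocyte terms they measure the spread left among libraries once differences between oocytes are taken out. The test between oocytes thus uses the segments of an oocyte as its replicates. Library totals ran from 806943 counts (segment E of oocyte 2) to 15554319 (segment A of oocyte 4). In segment E of oocyte 2 the median member had 67 counts, and 29 values of 0 counts occurred in 17 members, 28 of them in segments A, B and C. The identifiers carry no gene names and 0 of them matched the RefSeq gene table, so the functions of the members are not known here, and the oocyte label could not be checked against marker genes.

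The members were of moderate abundance. Their mean level over the 20 libraries ran from 10.3 to 499 CPM with a median of 45.0; 59 members had at least 100 CPM and 70 had under 20. The 10 most abundant members held 15% of the summed level, so no few RNAs made up the set. The median level over the members was 22.1 CPM in A and 24.2 in B, then 29.9 in C. It was 53.1 CPM in D and 82.3 in E. In A the members ranged from 3.7 to 197.9 CPM, and in E from 15.3 to 1231 CPM.

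Together the 300 features held a small share of every library. In segment A they held 1.13% of the counts in oocyte 1, 1.02% in oocyte 2, 0.953% in oocyte 3 and 1.18% in oocyte 4. In D the same oocytes had 1.75%, 2.24%, 3.03% and 2.74%, and in E they had 4.04%, 3.83%, 3.93% and 4.09%. All 4 values of E lay above all 4 of D, and those of D above those of C, which the selection favours. The mean share of the 4 oocytes (± SD) was 1.07% ± 0.104 for segment A and 1.11% ± 0.114 for segment B. It was 1.32% ± 0.171 for C, 2.44% ± 0.568 for D and 3.97% ± 0.119 for E. The spread between oocytes was thus widest in D, where the SD was 0.568 percentage points, against 0.119 in E.

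**Figure D1:**
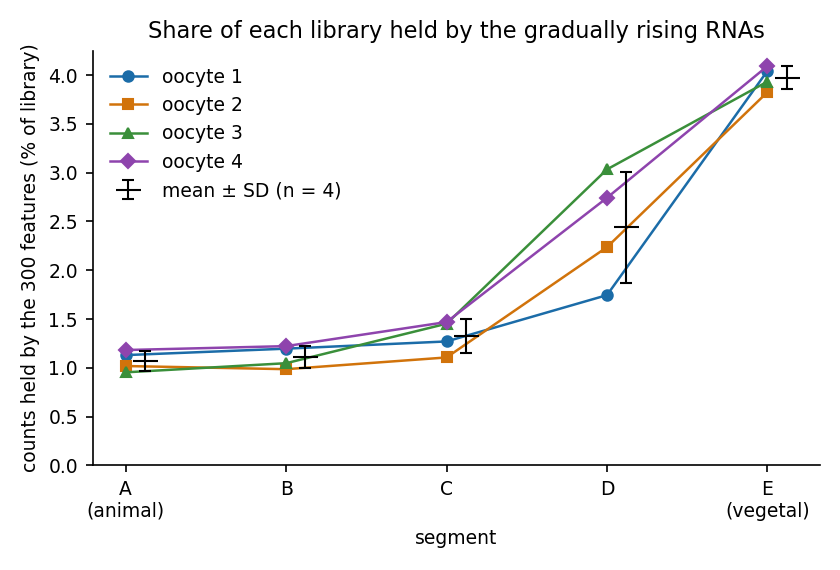
Share of the counts of each library (percent, y axis) held by the 300 features in segments A to E (x axis), with 1 line per oocyte and black marks for the mean ± SD of 4 oocytes. The oocytes lie together in A, B and E and apart in D, where oocyte 1 has 1.75% and oocyte 3 has 3.03%.

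The steepness differed among members. The ratio of E to A in segment means ran from 1.87 to 14.2 with a median of 3.61; it was at least 8 for 10 members, from 4 to 8 for 108 and under 4 for 182. The median ratio was 1.22 for C over A, 1.73 for D over C and 1.61 for E over D. The step from C to D was the larger of the last 2 on the ratio scale in 188 members and the step from D to E in 112. E held from 28.5% to 49.98% of the sum of the segment means, with a median of 39.4%. At the border of that condition, 325 features met every other condition but had a share of E at or above the limit, the nearest at 50.14%. The members nearest to the other limits had ratios of 1.253 for D over C, 1.2504 for E over D and 1.1003 for C over A, and the features that failed only these conditions came as near as 1.236, 1.2499 and 1.0999. The mean level nearest to the limit was 10.07 CPM inside and 9.95 CPM outside.

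Tests on the same contrasts are given as a description only, since the selection used them. The threshold was a Benjamini-Hochberg p of 0.05 over 32302 features in edgeR's quasi-likelihood test. E was higher than A in 289 of the 300 members, where 8.1% of all features tested were; with the oocyte as a block it was 297, against 10.6%. D was higher than C in 139 members, against 2.42% of all features, and E higher than D in 111, against 1.99%. With the block, 215 members were higher in D than in C, against 4.14% of all features, and 193 in E than in D, against 3.94%. Fewer members passed when an oocyte was left out: for D against C, 124 without oocyte 1, 46 without oocyte 2, 33 without oocyte 3 and 34 without oocyte 4. Of all features, 2.48%, 1.09%, 0.846% and 0.72% were then called in either direction. For E against D the members' counts were 19, 18, 84 and 26 over the same fits, and 0.705%, 0.334%, 1.86% and 0.738% of all features were called.

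AMEXTC_0340000183807 was the most abundant member. It had 171.0 CPM in segment A of oocyte 1, 152.8 in oocyte 2, 133.2 in oocyte 3 and 150.1 in oocyte 4. In B the same oocytes had 150.1, 112.8, 130.8 and 167.6 CPM, and in C they had 173.5, 152.2, 308.3 and 252.2 CPM. The ranges of A and B overlapped in part, and in C oocytes 1, 3 and 4 stood above all libraries of A and B, oocyte 1 only just. In D the levels were 354.5, 736.1, 1079 and 832.8 CPM, and in E they were 1082, 1321, 1354 and 1166 CPM. Every library of D lay above every library of C, and the 4 libraries of E lay above those of D, the nearest being oocyte 1 in E and oocyte 3 in D. On the log2 scale of CPM ratios within an oocyte, the step from C to D was 1.71 ± 0.51 and that from D to E 0.82 ± 0.57 (SD, n = 4 each). Both steps were positive in 4 of 4 oocytes, which the selection favours. In edgeR without the oocyte block D against C passed the threshold (adjusted p 0.0012) and E against D did not (0.112). With the block both passed (edgeR adjusted p 0.000545 and 0.0399). The level did not pass the threshold for a difference between oocytes (adjusted p 0.310, edgeR).

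AMEXTC_0340000280133 had the profile nearest to the median of the members and ranked 158 by abundance. It had 26.0, 20.8, 15.8 and 29.4 CPM in segment A of oocytes 1 to 4, and 30.9, 20.6, 22.7 and 28.6 CPM in B. In C the levels were 32.3, 17.4, 26.6 and 36.9 CPM, within or close to the range of A and B. In D they were 36.8, 36.2, 41.7 and 79.1 CPM, so that 3 oocytes lay together and oocyte 4 apart. In E they were 115, 52.0, 68.2 and 95.6 CPM, with oocytes 1 and 4 above oocytes 2 and 3, and the ranges of D and E overlapped. Within an oocyte the log2 ratio of E to A was 1.82 ± 0.39 (SD, n = 4), positive in 4 of 4 oocytes as the selection required. In edgeR without the oocyte block neither D against C nor E against D passed the threshold (adjusted p 0.162 and 0.124). With the block both did (edgeR adjusted p 0.0117 and 0.00758). The level of this member differed between oocytes with the segment held fixed (adjusted p 0.00759, edgeR quasi-likelihood F-test). Over 12 alternatives that edgeR or DESeq2 adjusted p lay between 2.63e-05 and 0.191. The alternatives that did not pass the threshold were the fits without oocyte 2 (adjusted p 0.0693) and without oocyte 4 (0.0892) and the fit to thinned libraries (0.191).

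**Figure D2:**
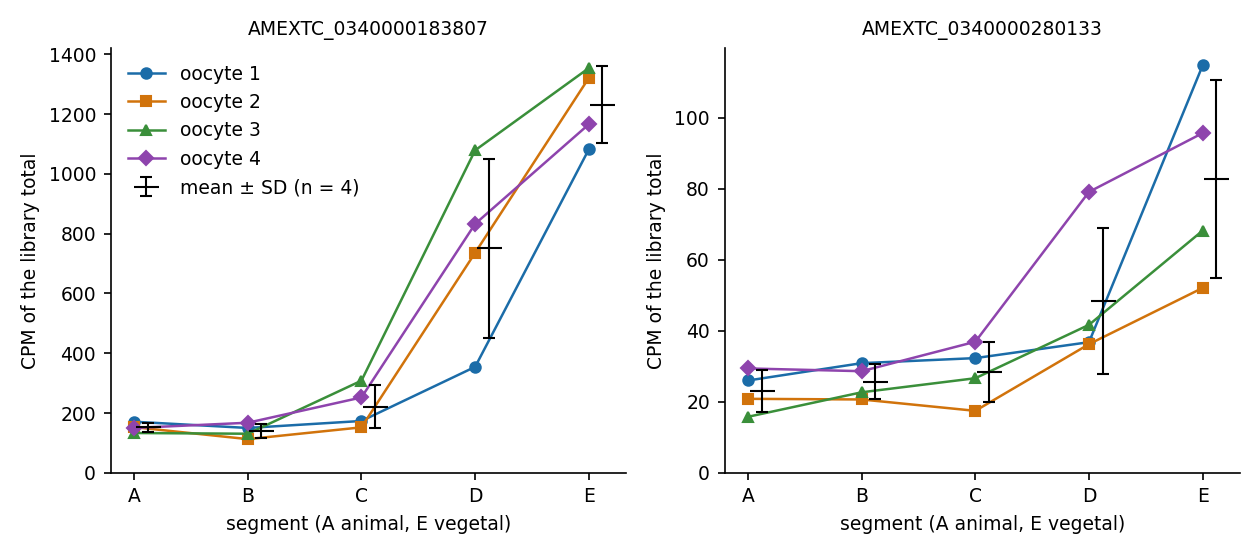
CPM of the library total (y axis) by segment (x axis) for the most abundant member (left) and the member nearest to the median profile (right), with 1 line per oocyte and black marks for the mean ± SD of 4 oocytes. In both, oocyte 1 stays low up to D (354.5 and 36.8 CPM) and takes most of its increase between D and E. On the right this low level in D is shared by oocytes 2 and 3 (36.2 and 41.7 CPM), and oocyte 4 stands apart (79.1 CPM).

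Segment B entered the selection only through sums, so its level against its neighbours was tested. None of the members (0 of 300) differed between B and A at an adjusted p under 0.05 in edgeR, and 0% of all features did. At an unadjusted p under 0.05, 2 members (0.667%) were higher in B, against 1.04% of all features tested in either direction. DESeq2 called 0 members, against 0.0279% of all features. Its unadjusted p was under 0.05 for 3 members (1%), against 1.26% of all features. With the oocyte as a block, 8 members (2.67%) had an unadjusted p under 0.05, all higher in B, against 2.42% of all features. The members' unadjusted share was thus under the background in edgeR and DESeq2 without the block, and close to it in edgeR with the block. C against B also gave 0 members in edgeR and 0 in DESeq2, against 0% and 0.0124% of all features. At an unadjusted p under 0.05, 21 members (7%) were higher in C than in B and 0 were lower, against 1.41% of all features in either direction. With the block there were 41 (13.7%), against 2.46%. Without the block the count was 45 (15%, against 1.73%) with oocyte 1 left out, 18 (6%, against 1.49%) with oocyte 2 left out, 9 (3%, against 1.04%) with oocyte 3 left out and 7 (2.33%, against 0.751%) with oocyte 4 left out. A and C are shared with the selection, which asked for C above A.

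By segment means, B lay between A and C in 171 members, under A in 110 and over C in 19. The ratio of B to A had a median of 0.06 on the log2 scale, with an SD of 0.0734 between the medians of the 4 oocytes. B exceeded A in all 4 oocytes for 37 members (12.3%), against 6.62% of all features tested. C exceeded B in all 4 oocytes for 113 members (37.7%), against 7.05%. The selection asked for C above A, which favours both counts, and its limit on the share of E favours a high B. The counts are therefore not read as a result about the members. The median ratio of B to A was near level, within the spread between oocytes.

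To see whether the graded profile appeared in oocytes that the selection had not used, the rule was applied to 3 oocytes at a time and the selected features were read in the oocyte left out. With oocyte 1 left out, 309 features were selected, and C, D and E stood in rising order in oocyte 1 for 257 of them (83.2%). For oocyte 2 this was 311 of 348 (89.4%), for oocyte 3 it was 163 of 205 (79.5%), and for oocyte 4 it was 248 of 270 (91.9%). Among all features with at least 10 CPM in the same 3 oocytes, the share with that order was 14.1%, 15.8%, 13.1% and 12.5%. This background depended on the scaling: with TMM factors, which centre the bulk of features between libraries, it was 21.7%, 20.3%, 22.6% and 26.6%, while the selected features had 81.0%, 85.6%, 81.0% and 91.0%. The mean was 86.0% ± 5.67 for the selected features and 13.9% ± 1.44 for all (SD, n = 4 oocytes). No test over features was made, because features of a library are not independent replicates.

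The conditions differed in how often they held in the unused oocyte. E exceeded A in 98.7% ± 1.08 of the selected features, against 29.4% ± 5.10 of all. With TMM factors that background ran from 37.0% to 50.7% over the oocytes, and the selected features had 95.5% to 99.1%. With library totals, D exceeded C in 93.8% ± 6.24, against 40.4% ± 4.21. E exceeded D in 91.8% ± 7.03, against 31.2% ± 5.25. C exceeded A in 72.0% ± 17.2, against 49.6% ± 2.42 (SD, n = 4 oocytes each). Both steps of at least 25% were met in 59.8% ± 12, from 43.9% in oocyte 3 to 73.0% in oocyte 2, against 6.58% ± 0.693 of all features. The small early increase from A to C was thus the condition that varied most between oocytes: it held for 59.2% and 55.2% of the selected features in oocytes 1 and 2 and for 85.4% and 88.1% in oocytes 3 and 4. Among all features it held for 46.4%, 52.0%, 50.8% and 49.3% in oocytes 1 to 4. In oocyte 2 the selected features were thus close to the background with library totals. With TMM factors the selected features had 64.2%, 57.7%, 85.8% and 87.5% in oocytes 1 to 4, against 51.8%, 48.9%, 50.5% and 51.7% of all. With libraries thinned to equal depth they had 53.1%, 49.1%, 81.2% and 67.2%, against 44.7%, 48.4%, 49.4% and 47.3%.

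**Figure D3:**
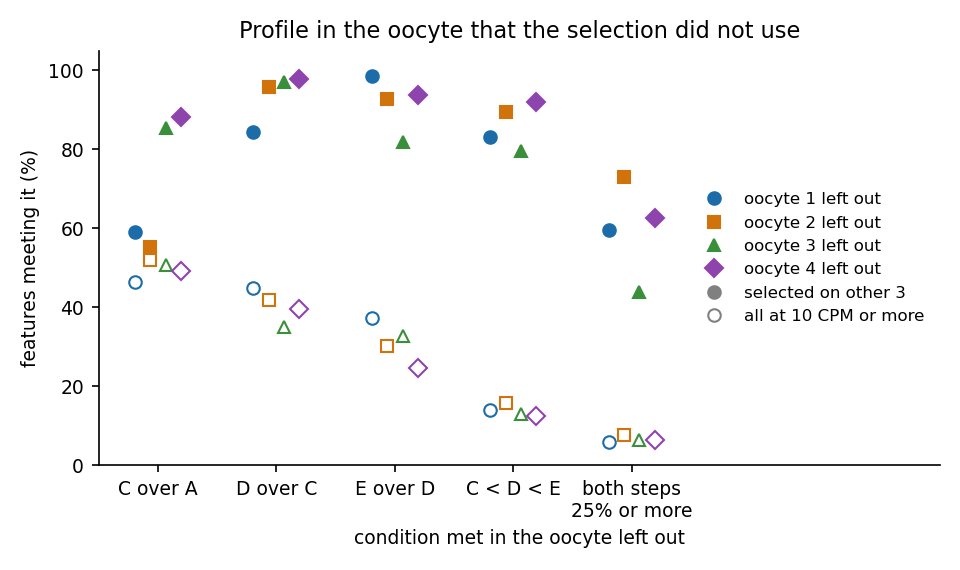
Percent of features (y axis) that met each condition (x axis) in the oocyte left out, for features selected on the other 3 oocytes (filled symbols) and for all features with at least 10 CPM in those 3 (open symbols), 1 symbol per oocyte. For the order C under D under E the filled symbols lie between 79.5% and 91.9% and the open ones between 12.5% and 15.8%.

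Within single oocytes the increase was not evenly graded. In oocyte 1 the median log2 step of the 300 members was 0.07 into B, 0.08 into C, 0.41 into D and 1.15 into E. In oocyte 3 the corresponding medians were 0.14, 0.43, 0.92 and 0.38. The largest step thus fell between D and E in oocyte 1 and between C and D in oocyte 3. Oocyte 2 had steps of -0.04, 0.14, 0.91 and 0.75, and oocyte 4 had 0.06, 0.25, 0.82 and 0.54. The step from C to D was larger than that from D to E in 38 members in oocyte 1, 192 in oocyte 2, 253 in oocyte 3 and 216 in oocyte 4.

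**Figure D4:**
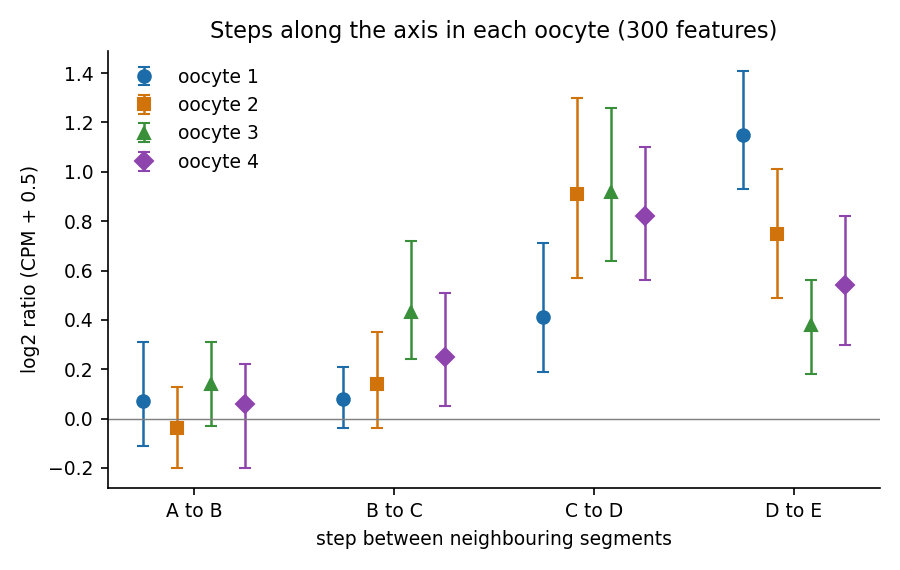
Log2 ratio of neighbouring segments (y axis, from CPM + 0.5) at each step along the axis (x axis) in the 4 oocytes; symbols are medians over the 300 members and bars span the quartiles over members. Oocyte 1 has the lowest median from C to D (0.41) and the highest from D to E (1.15).

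All of the 300 members had C, D and E in rising order in at least 2 oocytes: 209 in all 4, 70 in 3 and 21 in 2. Both steps of at least 25%, which the selection asked of the means, were met within all 4 single oocytes by 73 members, in 3 by 95, in 2 by 76, in 1 by 44 and in none by 12. The selection on the means of C, D and E favours both the order and the steps, and the matching shares of all features were not counted. Among members with at least 100 CPM, 93.2% kept the order in all 4 oocytes. It was kept by 69.6% of those with 20 to 100 CPM and by 35 of the 70 under 20 CPM. The part of counting error in this difference was not tested.

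The level of D was placed between those of C and E in each oocyte, as the percent of the way from the summed level of C to that of E. For the members it was 17.1% in oocyte 1, 41.6% in oocyte 2, 63.8% in oocyte 3 and 48.5% in oocyte 4. D thus lay near C in oocyte 1 and nearer to E in oocyte 3. Of the 295 members with E above C in every oocyte, the lowest position was in oocyte 1 for 230 and the highest in oocyte 3 for 192.

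The same order of oocytes was seen in features of other profiles. In the 325 features that met the other conditions but had at least 50% of the sum in E, D lay at 12.4%, 19.6%, 35.7% and 26.7% of the way in oocytes 1 to 4. In 384 features that met mirrored conditions, falling from C to D to E, D lay at 39.6%, 51.2%, 71.8% and 65.1%. The 3 sets share no feature but share the libraries, and shares of a library are bound to sum to a fixed total. In all 3 sets oocyte 1 was lowest, followed by oocytes 2, 4 and 3, with library totals, with TMM scaling and with libraries thinned to equal depth. Some ranks were close: with TMM scaling, oocytes 4 and 3 of the falling set had 72.4% and 72.5%. Oocytes 2 and 4 of the members then had 38.1% and 40.2%. The order was also the same in members with an E to A ratio of at least 8, from 4 to 8 and under 4. Where the cuts fell in each oocyte is not given in the labels, and its part in these values was not tested.

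**Figure D5:**
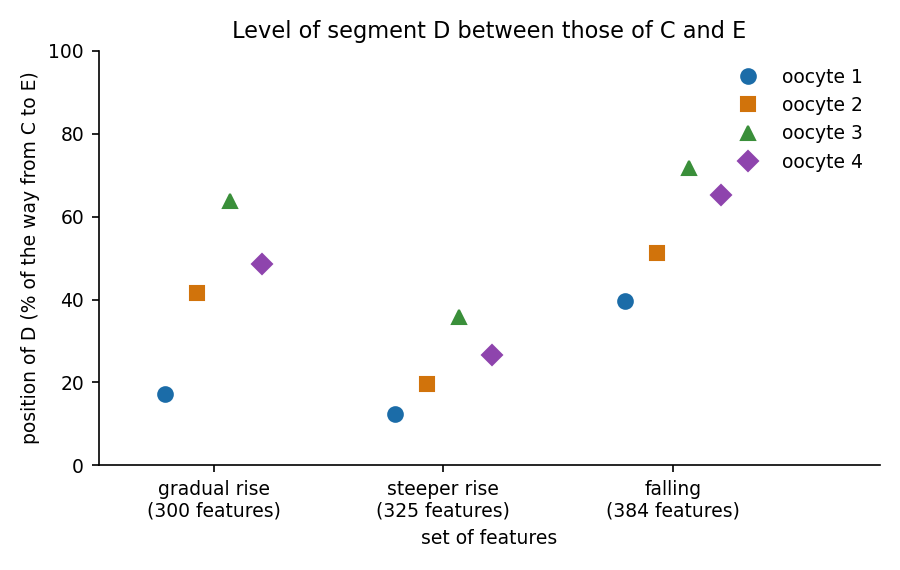
Position of the summed level of segment D as the percent of the way from C to E (y axis) for the 300 members, 325 features with a steeper increase and 384 falling features (x axis), 1 symbol per oocyte. In each set oocyte 1 is lowest and oocyte 3 highest; for the members these are 17.1% and 63.8%.

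Differences between oocytes in the shape of the profile were tested feature by feature. In edgeR's quasi-likelihood F-test on 9 residual degrees of freedom, 0 of 300 members had a different slope along the axis between oocytes. The share of all features tested was 0%. An unadjusted p under 0.05 for the slope was seen for 37 members (12.3%), against 6.84% of all features tested. Among features with at least 10 CPM the share was 9.49%, in the steeper set 9.85% and in the falling set 7.55%. DESeq2 called 6 members, against 1.03% of all features. A different level of D between oocytes, relative to the other segments, was tested after the profiles had been seen. In edgeR it was found for 0 members at an adjusted p under 0.05, the smallest being 0.0664, against 0.0464% of all features. At an unadjusted p under 0.05 it was found for 111 members (37%), against 7.28% of all features tested. The share was 9.21% among features with at least 10 CPM, 29.8% in the steeper set and 11.7% in the falling set. DESeq2 called 55 members at an adjusted p under 0.05, against 3.4% of all features. Without oocyte 1, 30 members (10%) had an unadjusted p under 0.05 in edgeR, against 4.48% of all features.

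The overall level of a member in one oocyte against another was not part of the selection. With the segment held fixed, edgeR's quasi-likelihood F-test called 95 of 300 members (31.7%) as different between oocytes, against 26.2% of all features tested and 35.5% of those with at least 10 CPM. The members' share lay between these backgrounds in that fit. Among the 95, the lowest and the highest oocyte differed by a median of 0.80 on the log2 scale. In 47 of them oocytes 1 and 4 both lay above oocytes 2 and 3, and in 31 both lay below. That split of the oocytes covered 82.1% of the called members and 93.5% of all called features. The count of 95 was 51 without oocyte 2 (17% of members, against 19.5% of all features) and 48 without oocyte 4 (16%, against 17.3%). The members' share was then below that of all features. It was above without oocyte 1, with 100 members (33.3%, against 21.7%), and without oocyte 3, with 88 (29.3%, against 19.9%).

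The calls between oocytes were spread over the members. They took in 35.6% of those with at least 100 CPM, 31.6% of those with 20 to 100 CPM and 28.6% of those under 20 CPM. They also took in 28.7% of the members with an E to A ratio from 4 to 8 and 34.6% of those with a ratio under 4, and 1 of the 10 members with a ratio of at least 8. Those 10 members had median levels of 11.5 CPM in A and 16.2 in B, then 27.5 in C. Their medians were 88.5 CPM in D and 129 in E. The limit on the share of E favours a high level in D among members this steep. By oocyte, D of these 10 members lay at 27.6%, 59.2%, 76.2% and 67.6% of the way from C to E in oocytes 1 to 4. The spread between libraries of a segment, as the median biological coefficient of variation in edgeR, was 24.9% for the members, 41.4% for the steeper set and 21.6% for all features with at least 10 CPM.

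The direction from C to D depended on the scale. The authors also deposited scaled values, the same counts multiplied by a constant per library, and how the constants were chosen is not given in the sources used here. On those values the members summed to 54000 ± 4390 for segment A and 141200 ± 13600 for segment B (mean ± SD, n = 4). The sums were 170500 ± 21600 for C, 91540 ± 24200 for D and 117800 ± 5120 for E. The highest segment mean then lay in C for 245 members, in E for 42 and in B for 13. The matching counts over all features were not made, so these are not read as a result about the members. From C to D the fitted log2 change of the median member was 0.89 with TMM scaling and -0.99 with the authors' constants, while that of the median feature was 0.00 and -1.87. With those constants 0 members were called higher and 219 lower in D than in C (edgeR), where 77.5% of all features were called in one direction or the other. From A to E the fitted log2 change of the median member was 2.11 with TMM scaling, 1.85 with library totals and 1.08 with the authors' constants, where the median feature had -0.06, -0.32 and -1.09. The members thus stood above the median feature by a similar margin on each scale, which follows from the constants being common to a library.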

How the data were processed

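Raw counts of 32960 features in 20 libraries were deposited by the authors. They also deposited a signal table of scaled values, in which the count is multiplied by one constant in each library. Undoing the scaling returned whole reads for 100% of the values within 0.01, all equal to the counts; the count test with the authors' constants called 18715 features for E against A. Trimmomatic, STAR 2.5.3a, kallisto and DESeq2 are named in the submitters' processing notes; the annotation and build are not given in the sources used here. The highest count of every feature was at least 30, so rarer features are not in the table.

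CPM used library totals. Tests used edgeR 4.0.16 in R 4.3.3 with TMM factors, filterByExpr (minimum count 10, minimum total 15), robust quasi-likelihood fits and Benjamini-Hochberg adjustment over the 32302 features kept. All 300 members passed this filter, and 658 features with 0.058% of the counts were left out. Segment contrasts used a model of segment means (15 residual degrees of freedom), the oocyte test a model of segment and oocyte (12), and the slope and D tests added oocyte terms (9). Ratios within single libraries used CPM plus 0.5. Scripts were tested on simulated data. Alternatives were RLE factors, library totals, the authors' constants, limma 3.58.1 on log2 of the scaled value plus 1, and DESeq2 1.42.0 with its default dispersion setting. Others were other filters, thinning to 806943 counts, an oocyte block and leaving out each oocyte.

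Library totals of 806943 to 15554319 counts set the precision, and intervals from counts would cover counting error only. The oocyte number in the labels marks libraries from the same oocyte, and the pairing rests on it. The deviations of these libraries from segment means correlated with a median r of 0.352 across features over 40 pairs (0.217 to 0.526). Libraries of different oocytes were not compared in this way. The members, the lists and the tests were chosen with earlier results of these data known. The 2 features named are the member with the highest mean CPM and the member with the profile nearest to the median. Preset gene lists and marker genes could not be used, because 0 identifiers matched a gene name. The D-level test and the position of D were added after the data were seen.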

Additional observations from a re-analysis of the deposited data

Results flagged for a closer look

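AMEXTC_0340000280133 had 79.1 CPM in segment D of oocyte 4, while the other 3 oocytes had 36.8, 36.2 and 41.7 CPM there, a gap wide for 4 libraries. Of 29 groups of 4 values examined, this was the 1 found; chance alone marks about 1 group in 20, or 1.45 here.

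DESeq2 called 55 members for a level of D that differed between oocytes, a test of the difference itself, and edgeR called 0. Of all features, DESeq2 called 3.4% and edgeR 0.0464%. DESeq2 called 6 members for a slope that differed between oocytes, and edgeR again called 0. Of all features, DESeq2 called 1.03% for the slope and edgeR 0%. The cause of the difference between the tools was not tested.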

How the results depend on the processing

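No member (0) passed for B against A, or for C over B, in edgeR with TMM, with RLE or with library totals, under each filter, thinning, the oocyte block, each oocyte left out, or in DESeq2. With the constants of the authors, B against A gave 281 members higher in B with edgeR and 280 with limma. Of all features, 66.4% and 61.7% were then called. D against C gave 0 and 0 members higher in D but 219 (73%) and 220 (73.3%) lower. Those shares were near the background, as 77.5% and 72.7% of all features were called in either direction. E against D gave 30 (10%) and 38 (12.7%), all higher in E. Of the 32302 features tested, 408 and 484 were called higher in E. Those called lower were 7649 and 8267, so that 24.9% and 27.1% were called in either direction. On that scale B exceeded A in all oocytes for 284 members, and the median log2 ratio of B to A was 1.39. No matching share of all features was counted there, so 284 is not read as a result about the members. The fitted log2 change from A to B was 1.32 for the median feature and 1.38 for the median member. On the same scale 42 members were highest in E, with no matching count over all features, and the rule selected 75 features, 0 of them members. For AMEXTC_0340000183807 the fitted log2 change was then 1.21 and 1.21 for B against A and -0.01 and -0.08 for D against C (edgeR and limma); for AMEXTC_0340000280133 it was -1.01 and -1.04 for D against C. These reversals follow from constants that differ between segments.

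With the oocyte as a replicate block, which pairs the libraries of an oocyte, 215 members were called between D and C and 193 between E and D. Without it 139 and 111 were. Of all features, 6.89% and 6.31% were called with the block and 3.31% and 2.66% without. DESeq2 gave 171 for E against D (4.59% of all features), 6 for the slope (1.03%) and 55 for the level of D (3.4%). At an adjusted p under 0.01 there were 75 for D against C, 37 for E against D and 56 between oocytes (18.7% of members), where 1.49%, 0.941% and 16.4% of all features were called. TMM scaling put the share of E at 4.52%. The rule selected 159 features with an E share under 40% of the sum and 145 with steps of 1.5 times. With TMM it selected 351, of which 249 were members, and with thinning 264, of which 186 were.

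Over the fits without each oocyte, D against C gave 33 to 124 members, E against D 18 to 84, the oocyte test 48 to 100, and the unadjusted D test 30 to 133. Of all features these fits called 0.72% to 2.48%, 0.334% to 1.86%, 17.3% to 21.7% and 4.48% to 8.51%. In the oocyte test the members' share was below that of all features without oocyte 2 or 4 and above it without oocyte 1 or 3. B exceeded A in all 3 oocytes left for 49 to 72 members. The matching share of all features was not counted, so this range is not read as a result about the members. The rule selected 205 to 348 features in these fits. They held 162 (54.0%, without oocyte 3) to 249 (83.0%, without oocyte 2) of the members. Other causes were not tested. With thinned libraries, 65 members (21.7%) were called between oocytes, against 20.3% of all features. At full depth 95 were.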
